A study of Sus scrofa with 27 samples.

Results

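The AMH and BMP signalling genes described here are 10 genes chosen by name: the hormone gene AMH, the receptor genes AMHR2, BMPR1A, BMPR1B and BMPR2, the signal transducer genes SMAD1 and SMAD5, and the target genes ID1, ID2 and ID3. All 10 were among the 11384 named genes that could be tested, out of 35670 Ensembl identifiers in the count data. Expression was measured by RNA-seq in mural granulosa cells (GCs), the GCs that line the wall of the follicle, isolated with a laser from tissue sections (laser capture microdissection, LCM). From each sow 1 follicle was used, the largest healthy one on the right ovary. There were 27 libraries, 1 per sow: 13 from full-fed (FF) sows and 14 from feed-restricted (RES) sows. All sows were wild-type Large White times Norwegian Landrace animals after their first litter. FF sows received 6.5 kg of feed per day and RES sows 3.25 kg per day in the closing 2 weeks of lactation, and both groups were then fed alike until ovaries were taken on day 2 after weaning, a time the labels call fully fed. According to the methods, the sows were taken from the ends of a larger trial, the RES sows with the most and the FF sows with the least weight loss. The groups therefore differ in how the sows were chosen as well as in feed, and these cannot be told apart. Since each library holds 1 follicle, the spread between libraries includes differences between follicles. The study also reports that the largest healthy follicle was smaller on average in RES than in FF sows. Feed and follicle size therefore cannot be told apart in the comparison of the groups either.

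Anti-Müllerian hormone (AMH) is made by GCs of growing follicles and is known to restrain follicle recruitment and the response to follicle-stimulating hormone. It binds its own type II receptor, AMHR2, which pairs with type I receptors shared with the bone morphogenetic proteins (BMPs), among them BMPR1A and BMPR1B. The BMPs themselves use BMPR2 and related type II receptors. The type I receptor phosphorylates SMAD1 and SMAD5, which enter the nucleus with SMAD4 and switch on target genes, of which ID1, ID2 and ID3 are the classical ones. ID proteins hold back differentiation by binding basic helix-loop-helix (bHLH) transcription factors. The receptors and SMADs signal through phosphorylation, which mRNA levels do not show.

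Library totals lay between 12299220 and 16021200 counts for FF (median 13490513) and between 12942198 and 18120922 for RES (median 15232600). Values per library are given as normalized counts, the deposited counts divided by a size factor for depth. They were not corrected for gene length, so levels are compared between libraries and never between genes. The GC markers were present at a high level in every library, with 8 listed markers summing to 77990 to 128500 normalized counts in FF and 78730 to 156300 in RES, and none of the 8 passed the test. Oocyte markers summed to at most 23.78. Markers of other cells were present and some differed. Of 8 tested endothelial markers 4 fell in RES, with sums between 909 and 1901 for FF (median 1244) and between 648 and 1697 for RES (median 946.5). EGFL7 was at 0 in 4 and PLVAP in 3 libraries, and the other 8 endothelial genes were at 0 in none. Of 11 tested cell cycle markers 9 rose, with sums between 3147 and 22050 for FF (median 11480) and between 8509 and 44470 for RES (median 27020). CDH5, the endothelial cadherin, averaged 140 ± 25.6 normalized counts for FF and 97.52 ± 34.0 for RES (SD over 13 and 14 libraries), and CDK1, the mitotic kinase, 721 ± 411 and 1518 ± 607. No library was at 0 for CDH5 or CDK1. Of the other lists, 1 of 7 theca, 2 of 8 smooth muscle and pericyte and 1 of 2 tested erythroid markers fell, and no stroma or immune marker passed. The read statistics of the study list for each library how many bases reached a quality score of 20. These shares fall into 3 separate ranges. The upper quality group holds 7 FF and 7 RES libraries. The lower quality group holds 6 FF and 7 RES libraries, of which RES sows 3 and 5 lie apart from all others with the lowest base quality, below the widest gap of the series. Since no FF library is in that lowest range, values without this pair stand beside results that rest on it, an alternative chosen after the values were seen. No source calls these ranges a batch. The row of FF sow 10 in those statistics is uncertain, because the labels name FF sow 9 as excluded. The study left out 1 FF sow for an abnormal RNA integrity pattern. Its list of RNA quality gives the lowest integrity number of all sows in the row of FF sow 10. The quality group of FF sow 10 may therefore be wrong. Values within the quality groups, which hold both diets, stand beside the pooled ones.

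In RES relative to FF GCs, 3 of the 10 members passed the test (edgeR's quasi-likelihood test, adjusted p under 0.05). AMHR2 and BMPR1B fell and SMAD5 rose. Over all 11384 genes, 14.1% were called, 5.85% lower and 8.29% higher in RES. The median log2 fold change of the members was 0.01, beside -0.02 over all genes tested, and 5 of 10 members had a positive value beside 5388 of 11384 genes. The members therefore did not move one way: the receptor genes with a value away from 0 pointed down, and SMAD5 and ID1 pointed up. In a bulk sample, fewer cells of a type and less RNA per cell cannot be told apart.

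**Figure D1:**
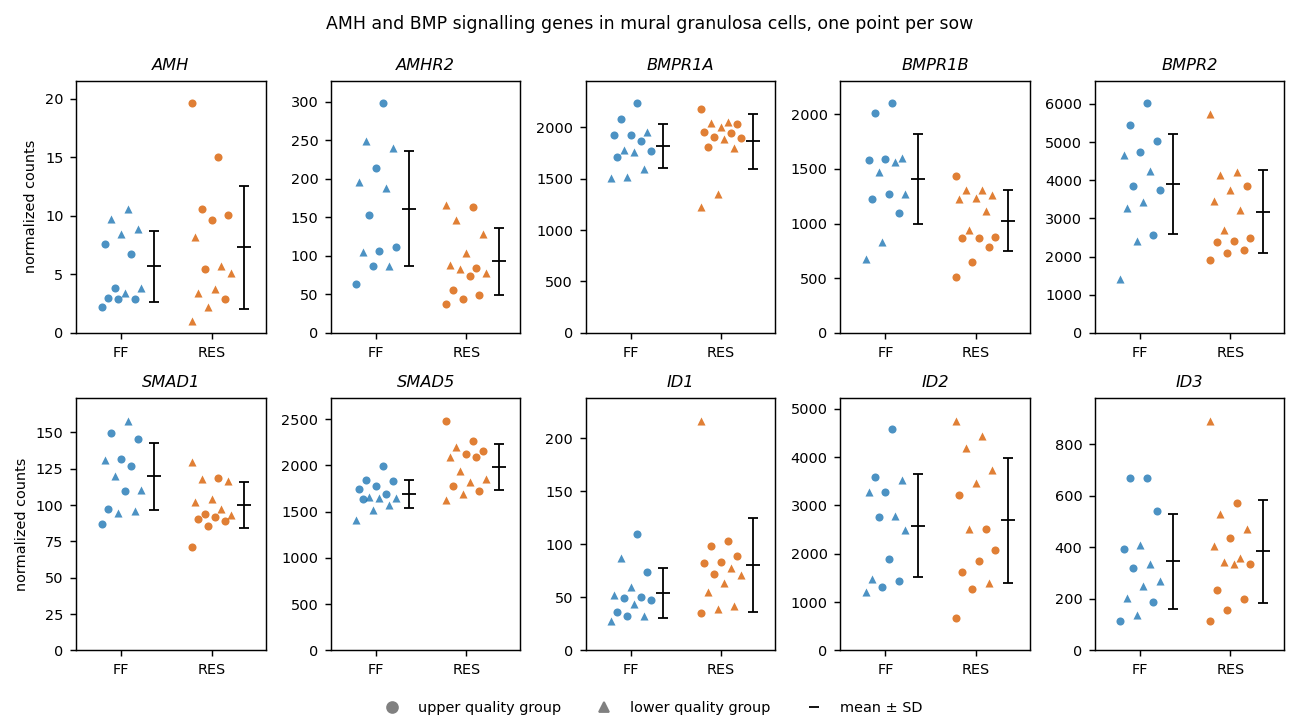
Normalized counts of the 10 members (vertical axes, each from 0) in FF and RES GCs, with 1 point per sow, circles for the upper and triangles for the lower quality group, and bars for the mean ± SD of 13 FF and 14 RES libraries. For BMPR1B all 14 RES points lie below the FF median of 1476, while for SMAD5 13 of 14 RES points lie above the FF median of 1657.

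AMH, the ligand that gives the pathway its name, was close to the detection limit and did not pass the test over all libraries. The gene (ENSSSCG00000035812) lies on the plus strand of Sscrofa11.1 at chr2:76415564-76418315 in the RefSeq annotation. Between 1 and 23 reads per library were counted for it. Normalized counts ran from 2.203 to 10.5 in FF (median 3.85) and from 0.998 to 19.6 in RES (median 5.59). The groups overlapped, with 3 RES libraries (sows 4, 6 and 9) above the highest FF library and 2 RES libraries below the lowest. Means were 5.68 ± 3.03 for FF and 7.32 ± 5.25 for RES (SD over 13 and 14 libraries), and the log2 fold change was 0.34 (SE 0.34, edgeR adjusted p = 0.543). Without RES sow 4, which had 23 reads, it was 0.12. Within the quality groups the values pointed in opposite directions. In the upper group the mean was 4.16 ± 2.11 for FF and 10.5 ± 5.57 for RES (SD over 7 and 7 libraries), a log2 fold change of 1.32 (SE 0.41, edgeR adjusted p = 0.0376). In the lower group it was 7.47 ± 3.09 (FF, n = 6) and 4.19 ± 2.38 (RES, n = 7, each ± SD), a log2 fold change of -0.87 (SE 0.42, edgeR adjusted p = 0.425).

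The promoter of AMH is shown because this gene is the ligand of the set and its window holds a motif that few windows have. The sequence runs from 250 bases before to 50 bases after the RefSeq gene start (Sscrofa11.1, chr2:76415314-76415613, plus strand), in lower case with AGGTCA in capitals.
AMH: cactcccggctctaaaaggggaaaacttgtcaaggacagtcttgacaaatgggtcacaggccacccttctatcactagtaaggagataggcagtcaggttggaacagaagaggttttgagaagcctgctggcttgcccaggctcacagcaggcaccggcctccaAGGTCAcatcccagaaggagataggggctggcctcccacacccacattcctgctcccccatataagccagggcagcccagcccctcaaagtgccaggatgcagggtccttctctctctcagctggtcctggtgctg
AGGTCA, searched on both strands, is the core of nuclear receptor half-sites, and with 1 more A in front (AAGGTCA) it is the form bound by NR5A1, a known activator of AMH. AAGGTCA starts at position -87 from the gene start in this window. Of 19531 windows of the same length, 3.78% hold AAGGTCA and 14.11% hold AGGTCA, the latter including all of the former. AMH was the single member with AAGGTCA, while BMPR1B also has AGGTCA. A match of letters is a description and not a measured binding site. NR5A1 itself averaged 73.1 ± 28.7 normalized counts for FF and 72.0 ± 23.5 for RES (SD over 13 and 14 libraries), with a log2 fold change of -0.07 (edgeR adjusted p = 0.844).

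AMHR2, the type II receptor that binds AMH alone, fell in RES GCs. The gene (ENSSSCG00000000271) lies on the plus strand at chr5:18642212-18648859. Normalized counts ran from 63.5 to 298 in FF (median 153) and from 37.2 to 166 in RES (median 83.8). The groups overlapped: 12 of 14 RES libraries were below the FF median, 4 RES libraries (sows 1, 9, 11 and 12) were below the lowest FF library, and 6 of 13 FF libraries were above the highest RES library. The means were 161.5 ± 74.5 (FF, n = 13) and 93.1 ± 43.2 (RES, n = 14, each ± SD). The log2 fold change was -0.83 (SE 0.25, edgeR adjusted p = 0.0232), a fold of 0.561. The call was kept in each of the 27 fits that left out 1 library, with adjusted p from 0.00788 to 0.0488. The direction was the same in both quality groups, at -1.06 (SE 0.37, edgeR adjusted p = 0.0574) in the upper and -0.69 (SE 0.25, edgeR adjusted p = 0.279) in the lower one.

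Of the type I receptors, BMPR1A had a fold change near 0 while BMPR1B fell. BMPR1A (ENSSSCG00000010360) lies on the plus strand at chr14:87743270-87891790, and in the RefSeq annotation its exons share 206 bases with those of MMRN2, an endothelial gene on the other strand. How reads in the shared bases were counted was not tested. Normalized counts of BMPR1A ran from 1507 to 2231 in FF (median 1780) and from 1220 to 2174 in RES (median 1925). All RES libraries but sows 3 and 5, which were the lowest of all 27 and also have the lowest base quality, lay above the FF median. The means were 1816 ± 213 (FF, n = 13) and 1862 ± 264.5 (RES, n = 14, each ± SD), with a log2 fold change of -0.00 (SE 0.08, edgeR adjusted p = 0.979), and the sign changed with the scaling. It was 0.07 without RES sows 3 and 5 (edgeR adjusted p = 0.463). MMRN2 had 274 ± 101 and 207 ± 110 normalized counts and did not pass the test (edgeR adjusted p = 0.202).

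BMPR1B is the type I receptor best known from the ovary, since a variant of it raises the ovulation rate of sheep. The gene (ENSSSCG00000029621) lies on the minus strand at chr8:124536648-125035841. Normalized counts ran from 674 to 2100 in FF (median 1476) and from 511 to 1437 in RES (median 1028). All 14 RES libraries were below the FF median and 7 of 13 FF libraries were above the highest RES library, but FF sows 10 and 13, at 674 and 829, lay among the low RES libraries. The means were 1407 ± 409 (FF, n = 13) and 1027 ± 280 (RES, n = 14, each ± SD). The log2 fold change was -0.49 (SE 0.16, edgeR adjusted p = 0.0373). The call was narrow. It was lost, at adjusted p of 0.0508 to 0.0688 and log2 fold changes of -0.48 to -0.43, in the 13 fits that left out FF sow 1, 2, 6, 7, 8, 12 or 14 or RES sow 1, 3, 6, 9, 11 or 12. Within the upper quality group the means were 1554 ± 388 for FF and 855 ± 290 for RES (SD over 7 and 7 libraries) and the log2 fold change was -0.89 (SE 0.21, edgeR adjusted p = 0.0127). In the lower group the means were 1235 ± 395 (FF, n = 6) and 1199 ± 131 (RES, n = 7, each ± SD), a log2 fold change of -0.08 (SE 0.18, edgeR adjusted p = 0.911). Without FF sow 10, which had the lowest FF value and whose quality row is uncertain, the lower group gave -0.20 (edgeR adjusted p = 0.677), and without RES sows 3 and 5 it gave -0.03. Over both groups without RES sows 3 and 5 the log2 fold change was -0.50 (edgeR adjusted p = 0.0471). Over both groups without FF sow 10 it was -0.55 (edgeR adjusted p = 0.0129).

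BMPR2, the type II receptor for the BMPs, had lower RES values than FF values with more overlap than BMPR1B, and did not pass the test. The gene (ENSSSCG00000016113) lies on the plus strand at chr15:105971577-106132496. Normalized counts ran from 1403 to 6013 in FF (median 3850) and from 1917 to 5726 in RES (median 2953). Of the 14 RES libraries 11 were below the FF median, and only FF sow 6 was above the highest RES library. The means were 3908 ± 1304 (FF, n = 13) and 3180 ± 1077 (RES, n = 14, each ± SD), with a log2 fold change of -0.33 (SE 0.18, edgeR adjusted p = 0.229). In the upper quality group it was -0.89 (SE 0.19, edgeR adjusted p = 0.00969) and in the lower one 0.23 (SE 0.24, edgeR adjusted p = 0.75). The lower group gave 0.08 without FF sow 10, the library with the least BMPR2, and 0.32 without RES sows 3 and 5. Over both groups without FF sow 10 the log2 fold change was -0.40 (edgeR adjusted p = 0.092).

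The promoter windows of BMPR1B and BMPR2 are shown because the levels of these receptors went together over the libraries, with a Pearson's r of 0.86 between their residuals from the group means (given below). They are the 250 bases before and 50 bases after the RefSeq gene start on the gene's own strand (Sscrofa11.1, BMPR1B chr8:125035792-125036091, minus strand, and BMPR2 chr15:105971327-105971626, plus strand). Capitals mark GGCGCC, a GC-rich element that SMAD1 and SMAD5 can bind, and AGGTCA or its reverse complement TGACCT.
BMPR1B: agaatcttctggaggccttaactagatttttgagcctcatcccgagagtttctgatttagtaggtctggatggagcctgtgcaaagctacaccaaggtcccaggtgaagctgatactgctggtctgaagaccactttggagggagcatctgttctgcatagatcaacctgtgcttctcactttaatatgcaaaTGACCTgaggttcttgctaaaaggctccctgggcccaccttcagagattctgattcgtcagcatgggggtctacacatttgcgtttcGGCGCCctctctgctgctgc
BMPR2: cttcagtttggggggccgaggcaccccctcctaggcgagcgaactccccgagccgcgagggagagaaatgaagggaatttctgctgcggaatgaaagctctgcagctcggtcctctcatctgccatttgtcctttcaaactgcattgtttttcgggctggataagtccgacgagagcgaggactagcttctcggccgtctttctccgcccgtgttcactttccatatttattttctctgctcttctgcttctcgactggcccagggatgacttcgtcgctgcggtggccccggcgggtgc
The BMPR1B window holds GGCGCC at position 30 and TGACCT at -57, and the BMPR2 window holds neither. GGCGCC, which reads the same on both strands, is in 19.8% of the 19531 windows. Of the members, BMPR1A has it at positions -249 and -207 and SMAD5 at -163 and -27. The G and C share is 49.7% in the BMPR1B window and 57.3% in the BMPR2 window, with a median of 58.7% over all windows. The windows thus have neither motif in common. Searched as well, on both strands, were the SMAD4 letters GTCT (83.5% of windows), the E-box CANNTG (67.78%) and the GATA letters GATAA (21.14%), of which the first pair is too frequent to set windows apart. GATAA is in the BMPR2 window at position -91 and, of the other members, in that of ID2 alone, at -62.

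The SMAD genes pointed in opposite directions. SMAD5 (ENSSSCG00000014319, chr2:138287635-138344092, plus strand) encodes one of the SMADs that carry the BMP and AMH signal, and it rose by a small and even amount. Normalized counts ran from 1405 to 1997 in FF (median 1657) and from 1624 to 2480 in RES (median 2011). Of the 14 RES libraries 13 were above the FF median, and 7 were above the highest FF library. The means were 1689 ± 153 (FF, n = 13) and 1986 ± 250 (RES, n = 14, each ± SD). The log2 fold change was 0.19 (SE 0.06, edgeR adjusted p = 0.0475), with 0.18 for the upper and 0.21 for the lower quality group. The size was thus stable, but the call was lost in 18 of 27 fits that left out 1 library, with adjusted p of 0.0526 to 0.0866. These were the fits without FF sow 1, 2, 3, 5, 6, 8, 10, 11, 12 or 13 or RES sow 1, 2, 6, 8, 9, 11, 12 or 13. It was 0.24 without RES sows 3 and 5 together (edgeR adjusted p = 0.0102).

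SMAD1 (ENSSSCG00000009040, chr8:82907557-82987909, minus strand), the closest relative of SMAD5 in this set, lay just outside the threshold on the low side. Its RefSeq exons share 780 bases with a long non-coding RNA on the other strand, and its counts are uncertain to that extent. Normalized counts ran from 87.2 to 158 in FF (median 120.3) and from 70.9 to 130 in RES (median 95.5). Of the 14 RES libraries 13 were below the FF median, and 5 FF libraries were above the highest RES library. The means were 119.8 ± 22.9 (FF, n = 13) and 100.1 ± 15.8 (RES, n = 14, each ± SD), with a log2 fold change of -0.30 (SE 0.11, edgeR adjusted p = 0.0548). It passed the test in 7 fits that left out 1 library, at adjusted p of 0.0217 to 0.049 (FF sow 1, 2, 5 or 7 or RES sow 2, 4 or 7), and under DESeq2's Wald test at an adjusted p of 0.0385. The quality groups gave log2 fold changes of -0.44 (upper) and -0.17 (lower).

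None of the ID genes, the targets by which BMP signalling is usually read, passed the test. ID1 (ENSSSCG00000037016, chr17:35316518-35317742, plus strand) came closest. Its normalized counts ran from 27.5 to 110 in FF (median 49.2) and from 34.9 to 216 in RES (median 74.9). Of the 14 RES libraries 11 were above the FF median, but only RES sow 3, at 216, was above the highest FF library. The means were 53.9 ± 23.9 (FF, n = 13) and 80.5 ± 44.6 (RES, n = 14, each ± SD). On the log2 scale the fold change was 0.52 (SE 0.23, edgeR p = 0.0303, adjusted p = 0.122), positive in both quality groups at 0.45 and 0.61. It was 0.34 without RES sow 3 and 0.65, with an adjusted p of 0.0437, without FF sow 4. With RES sows 3 and 5 both left out it was 0.36 over all libraries and 0.18 in the lower quality group.

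ID2 (ENSSSCG00000008645, chr3:127500759-127503207, minus strand) and ID3 (ENSSSCG00000039514, chr6:81422541-81424169, minus strand) varied widely within both groups, with fold changes near 0. ID2 ran from 1207 to 4582 normalized counts in FF (median 2753) and from 670 to 4749 in RES (median 2502). Its log2 fold change was 0.02 (SE 0.25, edgeR adjusted p = 0.977), and its sign changed in 11 of 27 fits that left out 1 library. ID3 ran from 112 to 668 in FF (median 321) and from 113 to 890 in RES (median 350). Its log2 fold change was 0.10 (SE 0.27, edgeR adjusted p = 0.841), and -0.04 without RES sow 3, which had the highest value. The coefficient of variation was 40.9% in FF and 48.0% in RES for ID2, 53.5% and 51.7% for ID3, and 9.05% and 12.6% for SMAD5. The spread of ID2 and ID3 between libraries was thus far wider than that of SMAD5. Within the quality groups both genes pointed in opposite directions, ID2 at -0.56 (upper) and 0.46 (lower) and ID3 at -0.55 (upper) and 0.78 (lower), with none called. Without RES sows 3 and 5, which had the most ID2 of the RES sows, ID2 was at -0.15 over all libraries and ID3 at -0.03.

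The promoters of ID2 and ID3 are shown because these genes varied together from sow to sow (below). The windows are as above (Sscrofa11.1, ID2 chr3:127503158-127503457 and ID3 chr6:81424120-81424419, both minus strand), and neither GGCGCC nor AGGTCA is present in them.
ID2: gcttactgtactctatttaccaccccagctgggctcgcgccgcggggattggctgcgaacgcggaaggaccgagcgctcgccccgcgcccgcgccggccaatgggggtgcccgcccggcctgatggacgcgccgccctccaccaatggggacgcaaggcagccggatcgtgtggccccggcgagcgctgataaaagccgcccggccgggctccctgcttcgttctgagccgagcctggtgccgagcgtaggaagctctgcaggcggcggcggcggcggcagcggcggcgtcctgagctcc
ID3: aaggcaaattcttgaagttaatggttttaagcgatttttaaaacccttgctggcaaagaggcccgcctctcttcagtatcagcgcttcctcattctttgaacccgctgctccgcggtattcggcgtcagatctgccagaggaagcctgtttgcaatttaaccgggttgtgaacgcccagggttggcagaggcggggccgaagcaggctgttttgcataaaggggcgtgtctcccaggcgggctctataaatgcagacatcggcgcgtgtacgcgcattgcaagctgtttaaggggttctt
The ID2 window has 73.0% G and C and the ID3 window 52.7%. None of the 3 ID windows, ID1 included, holds GGCGCC. The known BMP response elements of ID genes can lie farther upstream than these 250 bases, so the absence of the letters here says nothing about SMAD binding.

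**Figure D2:**
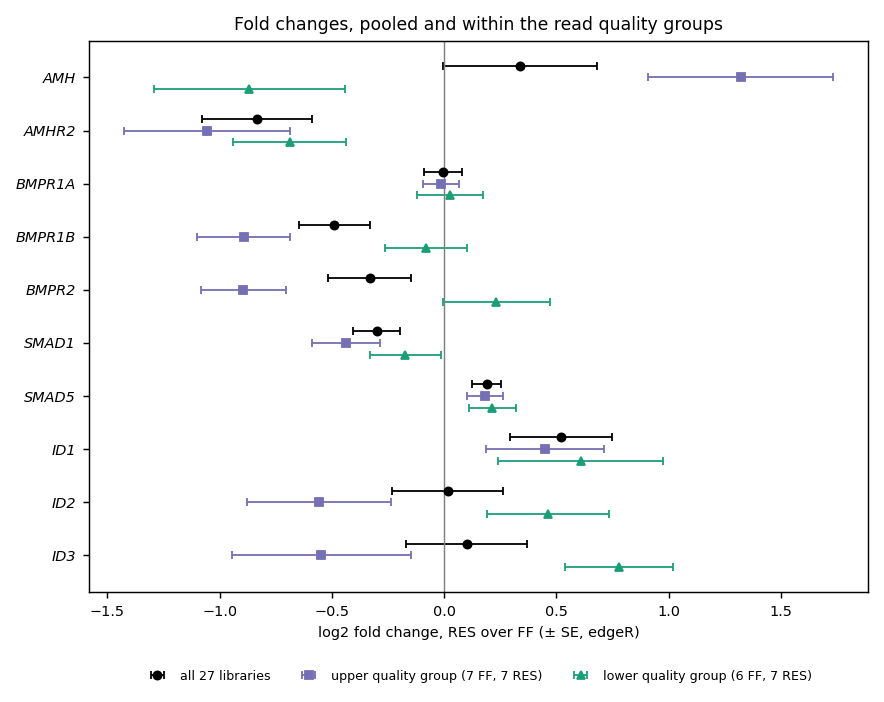
Log2 fold changes of RES over FF (horizontal axis, 0 marked by the vertical line) with their SE for each member, over all 27 libraries (circles), the upper quality group (squares) and the lower (triangles). AMHR2, BMPR1B, SMAD1, SMAD5 and ID1 keep their side of 0 in both quality groups, AMH, BMPR2, ID2 and ID3 change sides, and BMPR1A stays near 0.

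Whether the fold changes of the 10 members differed between the quality groups was tested as the interaction of diet and quality group (edgeR), after the pooled values were seen. Upper minus lower, it was 2.18 for AMH (SE 0.59, unadjusted p = 0.000871), -1.13 for BMPR2 (SE 0.32, unadjusted p = 0.00134) and -0.81 for BMPR1B (SE 0.29, unadjusted p = 0.00879). It was -1.33 for ID3 (unadjusted p = 0.0133) and -1.02 for ID2 (unadjusted p = 0.0312). After adjustment over 11384 genes none passed, with adjusted p of 0.175, 0.182, 0.296, 0.319 and 0.374. No gene of any kind passed, while 1398 had an unadjusted p under 0.05. For AMHR2, SMAD1, SMAD5, ID1 and BMPR1A the unadjusted p was between 0.217 and 0.801. In the lower quality group alone 1 of 11384 genes was called, with 1385 at an unadjusted p under 0.05, against 2023 called in the upper group. The pooled values of AMH, BMPR1B, BMPR2, ID2 and ID3 thus stand over quality groups with unlike values, a difference that did not pass the adjusted test. Without RES sows 3 and 5 the difference was 2.41 for AMH (edgeR adjusted p = 0.0764) and -1.21 for BMPR2 (edgeR adjusted p = 0.0836), and again no gene passed, with 2165 at an unadjusted p under 0.05. What separates the quality groups was not tested.

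Around the members, 58 other genes of the pathway were tested in 7 lists, each gene counted once, and 5 of them (8.62%) were called, beside 14.1% over all genes tested. SMAD9, the third SMAD of the BMP branch and itself a BMP target, fell. It averaged 227 ± 81.1 normalized counts for FF and 116 ± 45.1 for RES (SD over 13 and 14 libraries), with 13 of 14 RES libraries below the FF median. Its log2 fold change was -1.01 (SE 0.20, edgeR adjusted p = 0.00194), and it was called in all 27 fits that left out 1 library. Among the ligands, 4 of 16 were abundant enough to test and 1 fell. This was BMP2, a BMP that signals through BMPR1A and BMPR1B, with 29.3 ± 19.7 and 11.9 ± 9.38 normalized counts and a log2 fold change of -1.33 (SE 0.39, edgeR adjusted p = 0.0219). Its call was lost without FF sow 6 (adjusted p = 0.0521). BMP4, GDF5 and GDF9 did not pass, with log2 fold changes of 0.24, -0.43 and -0.17. BMP6 and BMP15 averaged under 5 counts, as did 8 other ligands. The median of the 4 ligands was -0.30, beside -0.02 over all genes tested.

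None of the 9 tested other receptors and co-receptors passed. The median log2 fold change was -0.24, and 2 of the 9 values were positive, beside 5388 of 11384 over all genes tested. The values farthest from 0 were those of ACVRL1, an endothelial type I receptor, at -0.81 (SE 0.29, edgeR adjusted p = 0.0535) and of the co-receptor RGMA at -0.76 (SE 0.29, edgeR adjusted p = 0.0776). ACVRL1 averaged only 8.18 normalized counts in FF and 4.72 in RES. ACVR1, the other type I receptor that AMH can use, was at -0.29 (SE 0.12, edgeR adjusted p = 0.0997). Of 12 other SMADs and intracellular regulators 2 fell and none rose (median -0.12). These were SMAD9 and PPM1A, a phosphatase that removes the activating phosphate from SMADs, at -0.23 (SE 0.07, edgeR adjusted p = 0.0262). The PPM1A log2 fold change was -0.19, just short of the threshold, with the size factors of all identifiers (adjusted p = 0.0507) and with all identifiers tested (adjusted p = 0.0505), and -0.19 without RES sows 3 and 5 (adjusted p = 0.0488). SMAD4, the common partner, was at 0.07 (edgeR adjusted p = 0.636). Of 15 tested antagonists and processing genes 1 rose and 1 fell (median 0.03). CHRDL2, a secreted BMP antagonist, rose with a log2 fold change of 0.92 (SE 0.30, edgeR adjusted p = 0.0394), from 12.5 ± 8.16 to 24.6 ± 12.6 normalized counts. That call was lost in 15 of 27 fits that left out 1 library, at adjusted p of 0.0503 to 0.081 (FF sow 1, 3, 6, 7, 8, 12, 13 or 14 or RES sow 3, 6, 8, 9, 11, 12 or 13). It was also lost without RES sows 3 and 5 together (0.82, adjusted p = 0.0708). FSTL3, a follistatin-like binding protein of activins, fell by 0.71 on the log2 scale (SE 0.19, edgeR adjusted p = 0.0123). FST, the follistatin of GCs, did not pass (-0.15, edgeR adjusted p = 0.59).

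Of 10 tested BMP targets other than ID1 to ID3, SMAD9 again was the one called. The median was -0.25, and 1 of the 10 values was positive, beside 5388 of 11384 over all genes tested. Some of the negative values lay near 0, such as BAMBI at -0.01 and RUNX1 at -0.07. HES1, which is also a Notch target, was the positive one at 0.34 (SE 0.18, edgeR adjusted p = 0.21). ID4 averaged under 5 counts. The 3 bHLH partners of the ID proteins did not pass, with TCF4 at -0.31 (SE 0.11, edgeR adjusted p = 0.068), TCF12 at -0.00 and TCF3 at 0.12. Among 8 tested regulators of AMH transcription none passed (7 positive values, median 0.24). WT1, a transcription factor of the gonad, was at 0.41 (SE 0.20, edgeR adjusted p = 0.158) and FSHR, the receptor for follicle-stimulating hormone, at 0.42 (SE 0.36, edgeR adjusted p = 0.453).

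**Figure D3:**
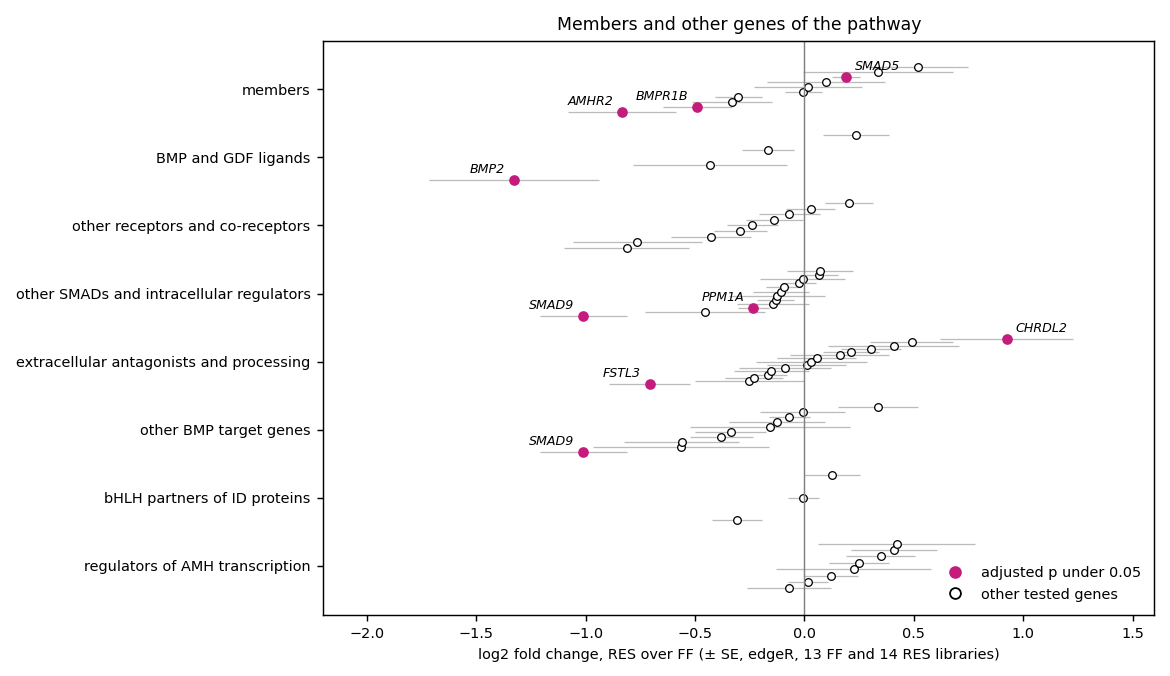
Log2 fold changes of RES over FF (horizontal axis, with SE) for the members and for the tested genes of each pathway list, filled where the edgeR adjusted p was under 0.05. The filled points are AMHR2, BMPR1B, BMP2, SMAD9, PPM1A and FSTL3 on the low side and SMAD5 and CHRDL2 on the high side, and SMAD9 stands in 2 lists.

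Correlations of each ID gene with each receptor gene were computed across sows within each group, 24 in all, with 100000 permutations (two-sided) and Benjamini-Hochberg adjustment over the 24. In FF, 3 of 12 had a p under 0.05, and in RES 4 of 12. ID2 and ID3 followed BMPR1B in FF GCs. For ID2 and BMPR1B Pearson's r was 0.75 (permutation p = 0.00338, adjusted p = 0.0442). Over ranks, Spearman's rho came to 0.76 (permutation p = 0.00376, adjusted p = 0.0902). Without the 2 libraries farthest from the BMPR1B median r was 0.63, and the quality groups gave 0.66 (upper, exact permutation p = 0.116) and 0.96 (lower, exact permutation p = 0.00417). For ID3 and BMPR1B r was 0.72 (permutation p = 0.00619, adjusted p = 0.0453), with a rho of 0.63 (permutation p = 0.0258, adjusted p = 0.161), and r was 0.65 without those 2 libraries. Both relations were positive in all 13 fits that left out 1 FF sow, at 0.67 to 0.86 for ID2 and 0.61 to 0.84 for ID3.

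In RES GCs the highest r with an ID gene was that of AMHR2. ID2 and BMPR1B had an r of 0.55 (permutation p = 0.0413, adjusted p = 0.141), while rho was 0.54 (permutation p = 0.0474, adjusted p = 0.189). Its r was 0.70 for the upper (exact permutation p = 0.0806) and -0.37 for the lower quality group (exact permutation p = 0.413). For ID3 and BMPR1B r was 0.40 (permutation p = 0.156), and the quality groups went opposite ways, at 0.75 and -0.95 (exact permutation p = 0.0528 and 0.00496). ID2 and AMHR2 had an r of 0.73 (permutation p = 0.00368, adjusted p = 0.0442), while rho was 0.69 (permutation p = 0.00881, adjusted p = 0.106). The r was 0.75 without the 2 libraries farthest from the AMHR2 median, 0.47 for the upper (exact permutation p = 0.308) and 0.81 for the lower quality group (exact permutation p = 0.0242). In FF the same pair had an r of 0.66 (permutation p = 0.0157, adjusted p = 0.0756), which fell to 0.43 without the 2 farthest libraries, so that it rests on them, and a rho of 0.47 (permutation p = 0.108). The r of ID2 and AMHR2 was above 0 in both groups and in each quality group, with the adjusted p of 0.0442 in RES and 0.0756 in FF given above, and the groups were not shown to differ (adjusted p = 0.911). ID2 with BMPR2 in RES had an r of 0.57 (permutation p = 0.0304, adjusted p = 0.122), beside a rho of 0.57, and 0.64 and 0.05 in the quality groups. No rho of the 24 had an adjusted p under 0.05.

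The 1 negative relation with an adjusted p under 0.05 was that of ID2 with BMPR1A in RES, at r = -0.65 (permutation p = 0.00755, adjusted p = 0.0453), with a rho of -0.51 (permutation p = 0.065). It rests on RES sows 3 and 5, the libraries with the least BMPR1A and the lowest base quality, since r was -0.25 without them. Those sows also had the most ID2 of the RES sows, at 4444 and 4749 normalized counts. In FF the pair had an r of 0.32 (permutation p = 0.284). Without this pair the other RES relations moved as well. For ID3 with BMPR1B r was then 0.73 (permutation p = 0.00962), for ID2 with BMPR1B 0.60 (permutation p = 0.0395), for ID2 with BMPR2 0.67 (permutation p = 0.0157) and for ID2 with AMHR2 0.65 (permutation p = 0.0211), over 12 sows and unadjusted. ID1 stood apart from ID2 and ID3. None of its 8 correlations with receptors had a Pearson's p under 0.05, and 7 of the 8 were negative. For ID1 and BMPR1A in FF, rho was -0.62 (permutation p = 0.0289, adjusted p = 0.161). Whether any of the 12 pairs differed between FF and RES was tested by permuting the diet labels over values standardized within each group. The smallest p was 0.0341, for ID2 and BMPR1A, with an adjusted p of 0.41, so none of the pairs was shown to differ between the groups.

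**Figure D4:**
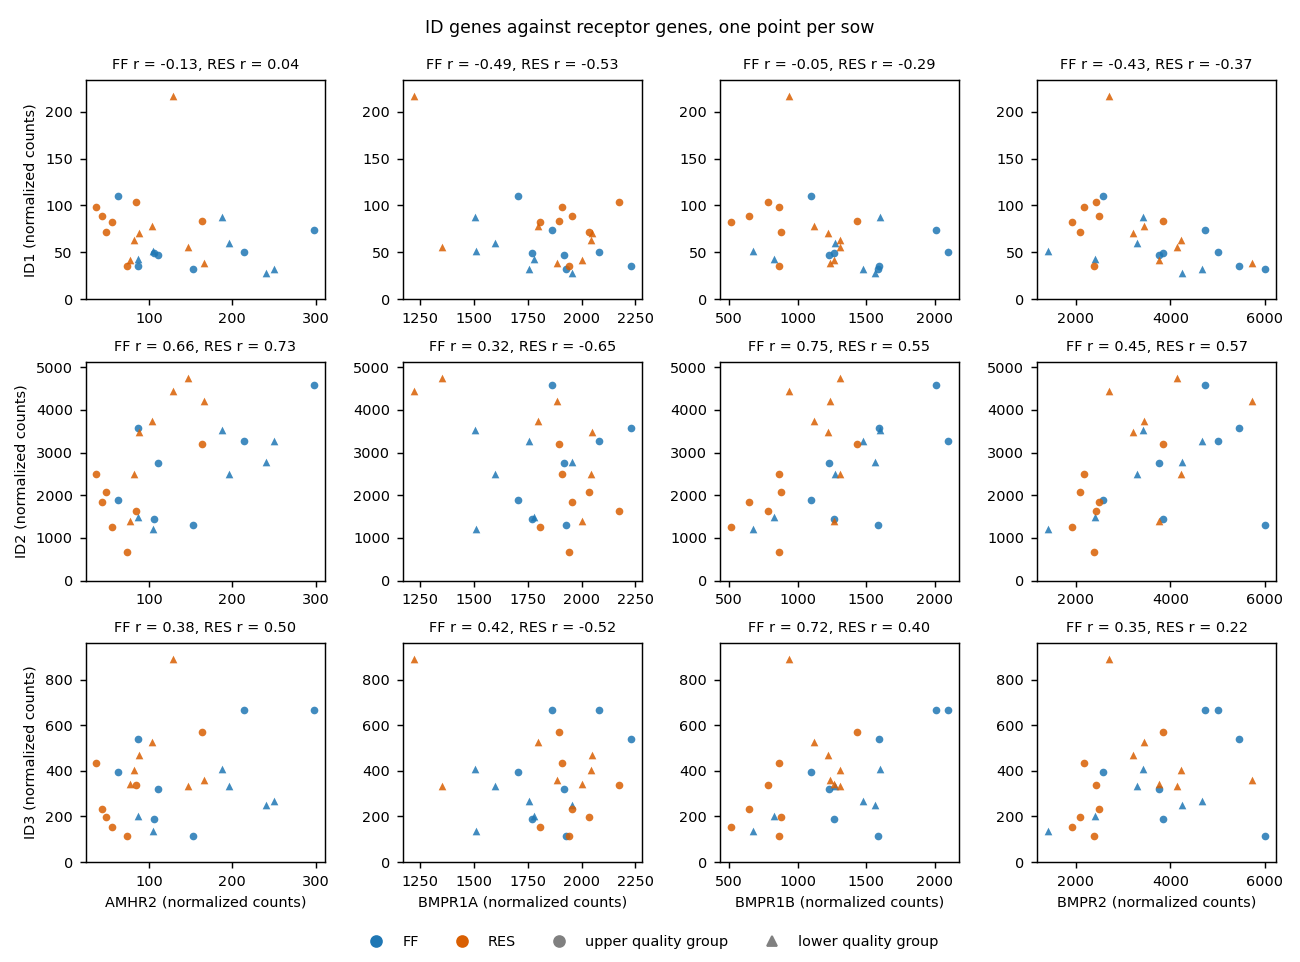
Normalized counts of ID1, ID2 and ID3 (vertical axes) against those of AMHR2, BMPR1A, BMPR1B and BMPR2 (horizontal axes), with 1 point per sow, FF in blue and RES in orange, circles for the upper and triangles for the lower quality group, and Pearson's r above each panel. In the panel of ID2 against BMPR1B the FF points lie along a rising line (r = 0.75), and in that of ID2 against BMPR1A RES sows 3 and 5 lie apart at the upper left.

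In a second family of 24 correlations the ID genes were set against each other and against AMH, SMAD1 and SMAD5. ID2 and ID3 were tightly related. In FF r was 0.82 (permutation p = 0.00051, adjusted p = 0.0122), with a rho of 0.87 (permutation p = 0.00027, adjusted p = 0.00648), with r = 0.78 without the 2 libraries farthest from the ID3 median. In RES r was 0.68 (permutation p = 0.00522, adjusted p = 0.0626), with a rho of 0.66 (permutation p = 0.0122, adjusted p = 0.147). In the quality groups r was 0.90 and 0.83 for FF (exact permutation p = 0.0105 and 0.0403) and 0.90 and 0.36 for RES (exact permutation p = 0.00575 and 0.407). ID1 followed ID3 in RES (r = 0.73, permutation p = 0.0139, adjusted p = 0.0833) through RES sow 3, without which r was 0.26, and rho was 0.37 (permutation p = 0.191). AMH was negatively related to ID2 in RES, at r = -0.64 (permutation p = 0.0115, adjusted p = 0.0833), with a rho of -0.55 (permutation p = 0.0436), but at -0.37 without the 2 libraries richest in AMH, at -0.91 for the upper (exact permutation p = 0.00575) and at 0.25 for the lower quality group (exact permutation p = 0.576). Neither SMAD1 nor SMAD5 was related to an ID gene at an adjusted p under 0.05. By Pearson's r the lowest p was that of SMAD5 with ID2 in RES (r = -0.55, permutation p = 0.0415, adjusted p = 0.199). By ranks it was that of SMAD1 with ID1 in RES (rho = -0.62, permutation p = 0.0208, adjusted p = 0.166), for which r was -0.11 (permutation p = 0.717). Without RES sows 3 and 5, over 12 sows and unadjusted, r was -0.82 for ID1 with SMAD1 (permutation p = 0.00137), 0.76 for ID2 with ID3 (permutation p = 0.00493), -0.73 for ID2 with AMH (permutation p = 0.00653), -0.75 for ID3 with AMH (permutation p = 0.004) and -0.31 for ID2 with SMAD5 (permutation p = 0.324).

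Because ID genes are also active in endothelial and dividing cells, the ID genes were set against the summed endothelial and cell cycle markers, 12 correlations in all. None had a p under 0.05 by Pearson's r over all sows. Without RES sows 3 and 5, ID2 had an r of 0.65 with the endothelial sum (permutation p = 0.0181) and -0.61 with the cell cycle sum (permutation p = 0.037). ID2 with the endothelial sum in RES came nearest, at r = 0.51 (permutation p = 0.0523, adjusted p = 0.314), with a rho of 0.62 (permutation p = 0.0199, adjusted p = 0.186). ID1, which pointed up in RES as the cell cycle markers did, had an r with their sum of 0.51 in FF and 0.41 in RES (permutation p = 0.0755 and 0.154), with a rho of 0.59 in RES (permutation p = 0.031, adjusted p = 0.186). The receptor and SMAD genes were set against the same sums after the marker levels were seen, 24 correlations. AMHR2 was negatively related to the cell cycle sum in both groups, at r = -0.68 in FF (permutation p = 0.011, adjusted p = 0.0418, rho = -0.61) and -0.72 in RES (permutation p = 0.0032, adjusted p = 0.0256, rho = -0.69). BMPR1B had -0.66 (adjusted p = 0.0418) and BMPR2 -0.74 (adjusted p = 0.0256) with that sum in RES, and SMAD5 had 0.69 (adjusted p = 0.0385). In FF none of these relations passed, with r at -0.45 for BMPR1B (adjusted p = 0.207), -0.52 for BMPR2 (adjusted p = 0.158) and 0.16 for SMAD5 (adjusted p = 0.717, rho = -0.14), and the difference between the diets was not tested. In the upper and lower quality groups the RES values were -0.68 and -0.36 for BMPR1B, -0.53 and -0.86 for BMPR2 and 0.93 and 0.15 for SMAD5. The r of AMHR2 with the cell cycle sum was negative in each quality group of each diet, at -0.61 to -0.71. BMPR2 followed the endothelial sum in RES at r = 0.86 (permutation p = 0.0002, adjusted p = 0.0048, rho = 0.76), as did AMHR2 at 0.62 (adjusted p = 0.0418, rho = 0.73). In FF these relations were also positive but did not pass, at r = 0.56 for BMPR2 (adjusted p = 0.125) and 0.48 for AMHR2 (adjusted p = 0.176). Whether they differ between the diets was not tested. In the quality groups the r of BMPR2 with the endothelial sum in RES was 0.34 (upper, exact permutation p = 0.537) and 0.88 (lower, exact permutation p = 0.0173). The members that fell in RES were AMHR2 and BMPR1B. Of the tested markers 4 of 8 endothelial ones fell as well, and 9 of 11 cell cycle ones rose. TIE1 (log2 fold change of 0.40), PECAM1 (-0.12), TEK (-0.54) and ERG (-0.46) did not pass. BMPR1B was not related to the endothelial sum at an adjusted p under 0.05, with r = 0.53 in RES (adjusted p = 0.125) and 0.31 in FF (adjusted p = 0.43). The part of endothelial or dividing cells in the fold changes was not tested.

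**Figure D5:**
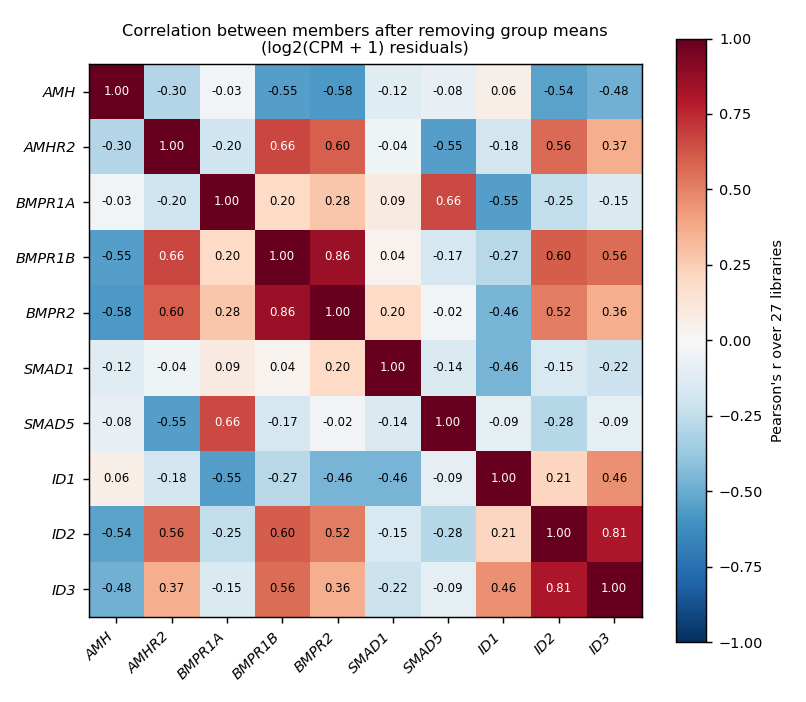
Pearson's r between the members over 27 libraries, computed on log2(CPM + 1) after subtracting each group's mean, with the value printed in each cell (blue negative, red positive). The highest values off the diagonal are BMPR1B with BMPR2 at 0.86 and ID2 with ID3 at 0.81.

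Over all 27 libraries, with the group means removed from log2(CPM + 1), the members formed a positive block of AMHR2, BMPR1B, BMPR2, ID2 and ID3, in which Pearson's r ran from 0.36 to 0.86. AMH was negatively related to BMPR1B (-0.55), BMPR2 (-0.58), ID2 (-0.54) and ID3 (-0.48). BMPR1A had an r of 0.66 with SMAD5 and -0.55 with ID1. Over the 25 libraries without RES sows 3 and 5, the pair with the lowest base quality, these were 0.37 and -0.50. Within RES, r of ID1 with BMPR1A was -0.53 (rho = -0.08) and 0.11 without that pair, so in RES it rests on those sows, while in FF it was -0.49. The block ran from 0.34 to 0.86 without them. These values are a description, since all genes of a library share its depth scaling and its RNA quality.

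The 3 genes whose residuals were most like those of each member were taken from 7971 other genes that averaged 50 counts or more per library. For AMH they included SPOCK3 (r = 0.74) and FSHR (0.72), the latter a receptor of GCs in growing follicles. For AMHR2 they were SLC35E2B (0.84), TMEM221 (0.83) and SLC26A6 (0.82), and the latter pair also fell in RES (log2 fold changes of -1.68 and -0.95, edgeR adjusted p = 0.0127 and 0.00686). BMPR1B and BMPR2 shared SAT1, the polyamine acetyltransferase (0.91 and 0.92), and MARCHF8, a ubiquitin ligase (0.91 and 0.94). SERINC3 (0.90) completed the list of BMPR1B and CBLB (0.93) that of BMPR2. SAT1, MARCHF8 and CBLB fell in RES, with log2 fold changes of -1.41, -0.85 and -0.75 (edgeR adjusted p = 0.0178, 0.0243 and 0.0175). BMPR1A was most like ZNF569 (0.88), KRIT1 (0.86) and ANKRD12 (0.86). SMAD1 was less closely matched, by ARHGAP21 (0.71), HBP1 (0.70) and ENTPD1 (0.70), while SMAD5 was matched by UBE3A (0.84), RIF1 (0.81) and GABPB1 (0.81), of which GABPB1 rose with it (log2 fold change of 0.28, edgeR adjusted p = 0.0246).

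The nearest genes of the ID genes differed from one ID gene to the next. ID1 was most like SLC2A1, the glucose transporter (0.85), EIF4H (0.84) and ELAVL1 (0.81), of which ELAVL1 rose in RES (log2 fold change of 0.34, edgeR adjusted p = 0.00854). ID2 was most like DRP2 (0.85), SLC41A1 (0.84) and TOB1 (0.82), a protein known to bind SMADs, and none of these passed the test. ID3 was most like GATA6, a GC transcription factor (0.76), and the stress response genes DDIT4 (0.76) and GADD45B (0.76), again with none called.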

How the data were processed

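RNA-seq of LCM-isolated mural GCs from 13 FF and 14 RES sows was analysed from the deposited counts. According to the submitters' processing notes and the methods, the authors aligned reads to Sscrofa11.1 with HISAT2 2.2.1, kept uniquely mapped reads with SAMtools 1.16.1, removed duplicate molecules with UMI-tools 1.1.4 and made counts per Ensembl gene with featureCounts 1.6.2, with no option stated for strand or for reads that meet more than 1 gene. By the default of that tool a read that meets exons of more than 1 gene, on either strand, counts for no gene. Removing duplicates by molecular tag keeps amplification of small laser-captured inputs out of the counts.

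Groups came from the sample labels. Identifiers with a symbol and a mean count of at least 5 (11384 genes) were tested with edgeR 4.0.16 (TMM factors, quasi-likelihood test, Benjamini-Hochberg adjustment over all of them) in R 4.3.3. Calls are at an adjusted p under 0.05. The SE of a log2 fold change is its size divided by the square root of F. Normalized counts are counts divided by DESeq2 1.42.0 size factors over all 17467 identifiers of that abundance, which center the libraries differently from TMM. On simulated counts 92.5% of 200 genes changed by a log2 fold change of 1 were recovered, and 6.09% of calls fell on unchanged genes.

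Correlations used normalized counts, 100000 permutations in Python 3.11.15 with scipy 1.17.1 (exact enumeration within quality groups), and adjustment within each family of 24, 24, 12 and 24. The smallest possible p is 1e-05 with the 100000 permutations and is larger with the exact enumeration. Positions and promoter windows were read from the RefSeq annotation of Sscrofa11.1. All members, the called genes of the pathway lists, CDH5, CDK1 and the 3 most alike genes per member are named by rule, except 1 gene that is not reported here, while further pathway genes were picked with their values in view. Members and lists were chosen with earlier results of these data known. BMP8A, BMP8B, FKBP1A, ZEB2, DAND5 and FOXL2 were not analysed here. Alternatives were other size factors, filters, tests, covariates, a replicate block, each quality group alone and leaving out each library.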

Additional observations from a re-analysis of the deposited data

How the results depend on the processing

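Against 1610 genes, 3 members and 5 pathway list genes called, the lower quality group alone gave 1, 0 and 0, while limma's voom, weighting libraries by quality, gave 3193, 6 and 16. The upper quality group alone called 8 pathway list genes. The share of calls that were higher in RES was 58.63%, but 69.63% with the size factors of all identifiers in edgeR and 51.14% with upper-quartile factors. Leaving out 1 library at a time gave 1182 to 2350 genes, 1 to 4 members (1 without FF sow 6, 8 or 12 or RES sow 1, 6, 9, 11 or 12) and 3 to 11 pathway list genes.

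The replicate block, with the sow number as a block, called 1086 genes, 0 members and 3 pathway list genes, with log2 fold changes of -0.77 for AMHR2, -0.42 for BMPR1B and 0.17 for SMAD5, none with an adjusted p under 0.05. The sow numbers did not pair the libraries: over 13 numbers the correlation of deviations was -0.242 to 0.31, 1 was over 0.1, and 0 libraries were most like their own number.

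In the upper quality group alone log2 fold changes were 1.32 for AMH, -1.06 for AMHR2, -0.89 for BMPR2, 0.18 for SMAD5, -0.56 for ID2 and -0.55 for ID3. In the lower group alone they were -0.87 for AMH, -0.69 for AMHR2, 0.024 for BMPR1A, -0.081 for BMPR1B, 0.23 for BMPR2 and 0.21 for SMAD5. Without RES sows 3 and 5 the lower group gave -1.09 for AMH, -0.80 for AMHR2, -0.029 for BMPR1B, 0.32 for BMPR2 and 0.30 for SMAD5, and without FF sow 10 it gave -0.81 for AMH, -0.80 for AMHR2, 0.0012 for BMPR1A, -0.20 for BMPR1B and 0.078 for BMPR2, each with 0 members and 0 pathway list genes called. Over both groups without RES sows 3 and 5, 1465 genes and 3 members were called, with BMPR1A at 0.073 and ID2 and ID3 at -0.15 and -0.034. The settings without RES sows 3 and 5 and without FF sow 10 were chosen after seeing the data. The BMPR1A log2 fold change of -0.0047 became 0.036 with the size factors of all identifiers, 0.00857 without a filter, 0.038 with all identifiers tested, 0.0027 with quality group as a covariate and 0.053 with voom. BMPR1B lost its call with all identifiers tested (-0.45). SMAD1 passed at -0.31 with DESeq2, -0.33 with upper-quartile factors, -0.31 with filterByExpr, -0.31 with the quality covariate and -0.34 with voom. SMAD5 missed at 0.19 with DESeq2 size factors, 0.18 with filterByExpr, 0.20 without a filter and 0.16 with the RNA integrity number as a covariate. With voom BMPR2 (-0.44) and ID1 (0.52) passed. ID2 was at -0.071 with the quality covariate and -0.15 with voom. The filterByExpr setting gives no AMH value.

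Leaving out 1 library gave log2 fold changes of 0.12 to 0.44 for AMH, -0.93 to -0.73 for AMHR2, -0.027 to 0.038 for BMPR1A, -0.55 to -0.43 for BMPR1B, -0.43 to -0.26 for BMPR2, -0.34 to -0.26 for SMAD1, 0.17 to 0.21 for SMAD5, 0.34 to 0.65 for ID1, -0.074 to 0.11 for ID2 and -0.038 to 0.22 for ID3.

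Correlations of ID genes with receptors at p under 0.05 numbered 5 in FF on residuals from quality group means (3 as reported) and 1 in RES without the 2 farthest libraries (4 as reported). In the second family they numbered 2 in FF on residuals (1 as reported), and 0 in RES without the 2 farthest libraries and 2 on residuals (4 as reported). With the summed markers RES gave 2 by Spearman's rho, 1 on the log2 scale, 2 on TMM-scaled CPM and 1 without the 2 farthest libraries (0 as reported). Leaving out 1 library gave 2 to 5 in FF and 2 to 5 in RES for the receptors, 1 to 2 and 3 to 5 for the second family, 0 to 1 and 0 to 2 for the markers, and 0 to 0 differences between the groups. The causes of these shifts were not tested. AMH, at 1 to 23 reads a library, had the fewest reads of the members.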
